A study of Rattus norvegicus with 4 samples.

Results

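The genes examined here encode the proteasome, its inducible form and the factors named with it. They are all the symbols of the deposited table that begin with Psma, Psmb, Psmc, Psmd, Psme, Psmf or Psmg followed by a digit. These symbols stand on 45 rows and describe 44 of the 14137 gene identifiers in the table, because Psma3 and Psma3l share an identifier and its values. The inducible genes are 4, namely Psmb8, Psmb9, Psme1 and Psme2, and the other 40 are called constitutive below. Of these 40, Psmc3ip (a cofactor of meiotic recombination) and Psme3ip1 (a binding partner of PA28 gamma) match by name only and are not proteasome subunits. Psmb10, the third inducible catalytic subunit, was not analysed here, nor were Psme3, Psma8, Psmb11, Psmd9 and Psmd10, so the inducible set of 4 is not the full set.

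The proteasome degrades proteins tagged with ubiquitin. Its core is a barrel of stacked alpha and beta rings, and a regulatory particle with a ring of ATPases recognises, unfolds and feeds in the substrate. Interferon induces alternative catalytic beta subunits, which replace their constitutive partners in newly assembled cores to form the immunoproteasome, and the PA28 alpha and beta subunits, which form an alternative cap. The peptides made this way are carried into the endoplasmic reticulum by the TAP transporter and loaded on MHC class I molecules. In heart muscle the proteasome is a main route for clearing misfolded and worn sarcomeric proteins.

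The samples were 4 RNA-seq libraries of neonatal rat ventricular myocytes, primary heart muscle cells from newborn rats. In 2 libraries the cells carried a lentivirus with a control hairpin RNA, and in the other 2 a lentivirus with a hairpin RNA against Crat, the mitochondrial and peroxisomal enzyme carnitine acetyltransferase. RNA was taken 5 days after infection in both groups. The labels call the groups WT and KO, but the design text describes hairpins, that is, a knockdown. They are called control and Crat hairpin here. Whether replicate libraries stem from different cultures is not stated by the labels. The p-values therefore reflect the spread among these libraries, which may be technical. Values are RPM, reads scaled to the library total, not divided by gene length, so levels are compared between libraries and not between genes.

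Crat itself, the check of the labels, was at 148 and 156 RPM in the controls and at 24.9 and 19.7 RPM in the Crat hairpin libraries, a log2 fold change of -2.72 ± 0.19 (SE; limma, Benjamini-Hochberg adjusted p = 7.32e-06). The libraries held 23680064 and 1321735 reads in the control group and 321516 and 1622998 in the Crat hairpin group, a 73.7-fold range of depth in which 1 read is worth between 0.0422 and 3.11 RPM. In the shallowest library, Crat hairpin replicate 1, the 40 constitutive genes had between 4 and 161 reads each, with a median of 35. Of 8 measured markers of cardiomyocytes 7 were lower in the Crat hairpin libraries (limma, adjusted p under 0.05), beside 6.36% of all genes tested. The summed level of the 8 markers was 25025 and 25509 RPM in the controls and 8995 and 9194 RPM with the Crat hairpin. In bulk RNA, fewer cells of a type and less RNA per cell cannot be told apart.

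All 44 genes passed the filter on low values, an average of 1 RPM or more across the 4 libraries. Of these, 13 were higher in the Crat hairpin libraries at an adjusted p under 0.05 and 0 were lower, beside 12.6% and 6.36% of all 12949 genes tested (limma on log2(RPM + 1)). The 4 inducible genes were all among the 13. Of the 40 constitutive genes 9 were higher, or 22.5%, and 31 were not called. The median log2 fold change was 2.74 over the inducible genes, 0.20 over the constitutive ones and 0.15 over all genes tested. The 4 inducible genes thus stood well above the range of most other members, whose median lay close to that of all genes.

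**Figure D1:**
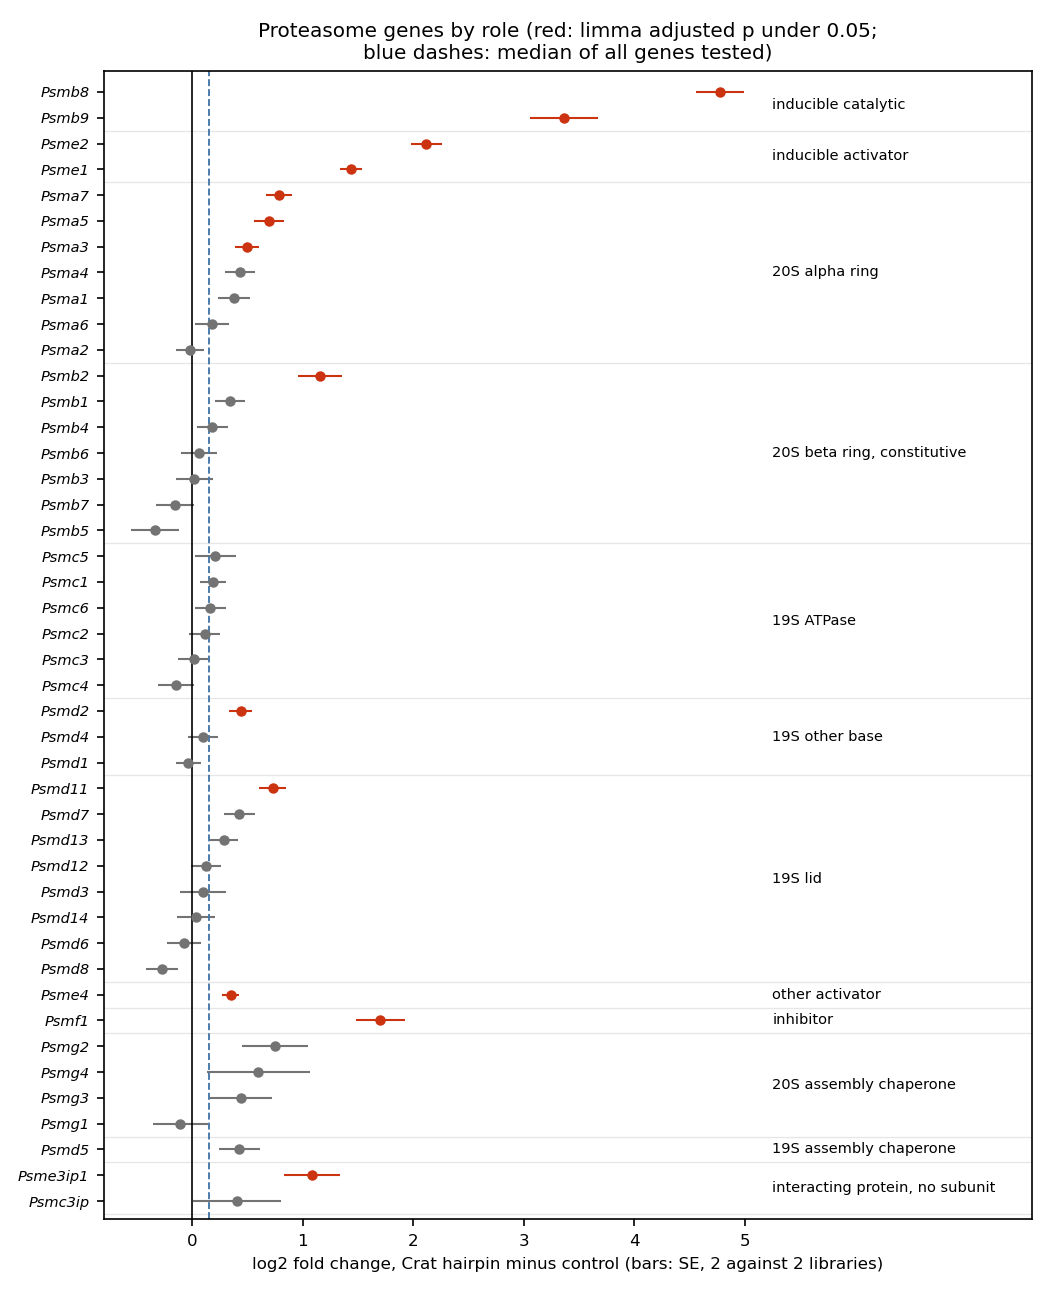
Log2 fold change (Crat hairpin minus control, on the log2(RPM + 1) scale) of each of the 44 genes, grouped by role, with bars of 1 standard error. Psmb8, Psmb9, Psme2 and Psme1 lie between 4.78 and 1.44, while the constitutive genes lie between -0.34 and 1.70, with Psmf1 the highest of them.

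The starts of 4 inducible genes and of 2 constitutive catalytic genes are shown because the data below contrast these genes. The start of Psmb7, also a constitutive catalytic gene contrasted below, is not shown. RefSeq promoters of the build GRCr8, each with 250 bases before and 50 after the annotated start, were matched by symbol for 40 of the 44 genes. Psma7, Psmd6, Psmd12 and Psmd14 had no entry. Each sequence below runs 5′ to 3′ from 100 bases before to 20 bases after the start, on the strand of the gene. Capitals mark GAAANNGAAA on either strand, letters of the interferon-stimulated response element type that IRF factors bind, in the inducible genes. In Psmb5 and Psmb6 they mark TGACNNNGC on either strand, letters of the antioxidant response element type that NRF factors bind.
Psmb8 (chr20:4657012-4657131, minus strand): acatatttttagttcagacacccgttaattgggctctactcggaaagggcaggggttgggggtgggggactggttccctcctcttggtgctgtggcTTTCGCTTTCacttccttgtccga
Psmb9 (chr20:4668900-4669019, plus strand): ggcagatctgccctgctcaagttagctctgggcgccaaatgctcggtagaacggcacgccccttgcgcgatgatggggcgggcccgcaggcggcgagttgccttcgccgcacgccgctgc
Psme1 (chr15:33038871-33038990, plus strand): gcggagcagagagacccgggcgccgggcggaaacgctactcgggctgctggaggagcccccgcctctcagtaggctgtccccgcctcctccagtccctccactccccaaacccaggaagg
Psme2 (chr15:33052732-33052851, minus strand): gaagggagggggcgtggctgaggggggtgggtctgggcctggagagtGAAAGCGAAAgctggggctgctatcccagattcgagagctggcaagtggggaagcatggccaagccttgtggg
Psmb5 (chr15:32047360-32047479, minus strand): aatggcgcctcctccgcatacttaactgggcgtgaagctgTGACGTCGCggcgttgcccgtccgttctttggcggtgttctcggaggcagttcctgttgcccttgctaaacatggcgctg
Psmb6 (chr10:55737788-55737907, plus strand): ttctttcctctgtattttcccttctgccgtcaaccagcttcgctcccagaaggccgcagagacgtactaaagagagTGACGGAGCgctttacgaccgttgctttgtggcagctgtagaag

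GAAANNGAAA stood in 6 of the 40 matched windows, against 3.92% of the 33469 RefSeq promoters of the same length. Psmb8 and Psme2 were the 2 of 4 inducible genes with a match, and Psma4, Psmb3, Psmd7 and Psmg4 were the 4 of 36 constitutive ones. In Psmb8 the letters lie at the start itself, on the strand opposite to the gene, and in Psme2 they lie between bases 53 and 44 before the start. TGACNNNGC stood in 7 of the 40 windows, those of Psma3, Psmb2, Psmb5, Psmb6, Psmd1, Psmd3 and Psme4, against 12.1% of all promoters. None of the 4 inducible windows held it (0 of 4), but 4 windows are too few to differ clearly from 12.1%. The window of Psmb7 held neither motif. TTCNNNGAA, also searched, stood in 4 of the 40 windows, those of Psmb8, Psmc6, Psmd3 and Psmd7, against 8.87% of all promoters. No window of the 40 held both GAAANNGAAA and TGACNNNGC, and a match describes letters, not binding.

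The inducible catalytic subunits had the largest changes. Psmb8 encodes LMP7, the inducible counterpart of the chymotrypsin-like subunit. It was at 7.56 and 6.05 RPM in the controls and at 221 and 204 RPM in the Crat hairpin libraries. Both Crat hairpin values lay far above both control values, although control replicate 2 rests on 8 reads of this gene. The log2 fold change was 4.78 ± 0.22 (SE, n = 2 against 2; limma, adjusted p = 3.55e-07), 27.4-fold on the log2(RPM + 1) scale. Psmb9 encodes LMP2, the inducible counterpart of the caspase-like subunit. It was at 5.91 and 5.30 RPM in the controls and at 56.0 and 80.1 RPM with the Crat hairpin, from 7 reads in control replicate 2 and 18 in Crat hairpin replicate 1. The groups did not overlap, and the log2 fold change was 3.37 ± 0.31 (limma, adjusted p = 5.46e-05).

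The PA28 cap genes changed by less and from more reads. Psme1, for PA28 alpha, was at 130 and 125 RPM in the controls and at 336 and 359 RPM in the Crat hairpin libraries, a log2 fold change of 1.44 ± 0.10 (limma, adjusted p = 8.79e-06). Psme2, for PA28 beta, was at 63.9 and 53.7 RPM in the controls and at 267 and 248 RPM with the Crat hairpin, a log2 fold change of 2.12 ± 0.14 (limma, adjusted p = 4.94e-06). Neither gene's groups overlapped, and the values within a group lay close together. In the authors' deposited table the adjusted p-values of the inducible genes were 1.81e-64 for Psmb8, 3.07e-15 for Psmb9, 1.92e-13 for Psme1 and 4.67e-19 for Psme2.

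**Figure D2:**
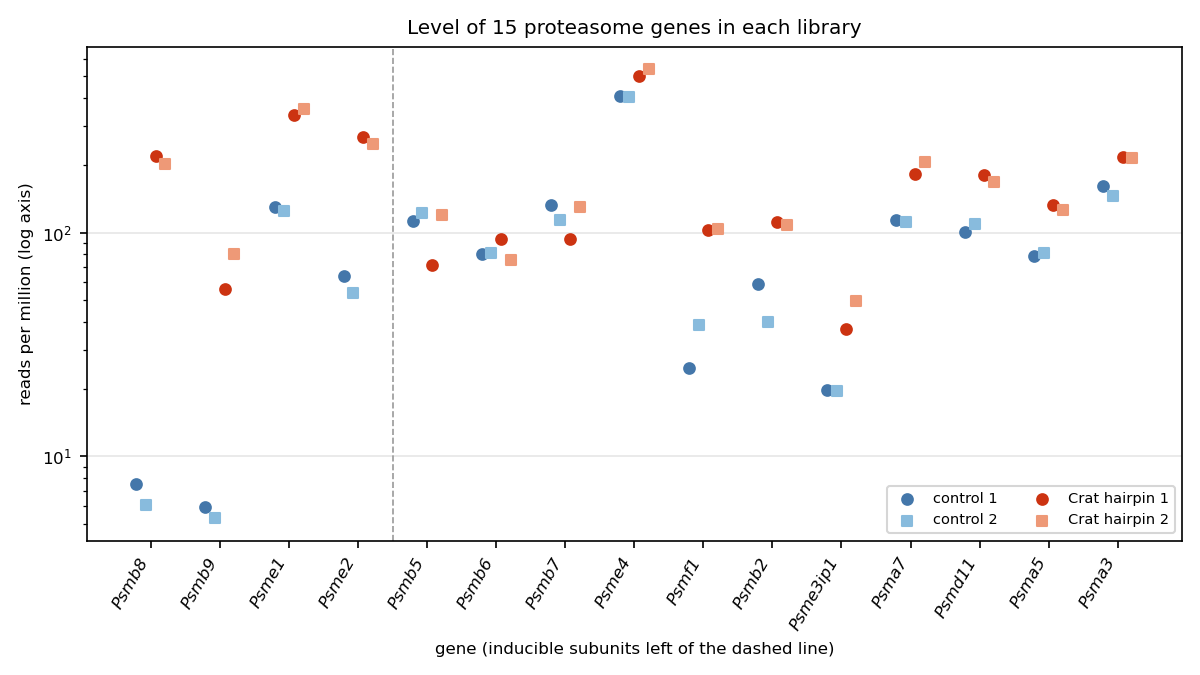
RPM (log axis) of 15 genes in each of the 4 libraries, with the inducible genes to the left of the dashed line and the constitutive genes named in the text to the right. Each point is 1 library. Psmb8 goes from 7.56 and 6.05 RPM in the control libraries to 221 and 204 RPM with the Crat hairpin, whereas the points of Psmb5, Psmb6 and Psmb7 overlap between the groups.

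The constitutive catalytic subunits showed no such difference. Psmb5, the chymotrypsin-like subunit that LMP7 replaces, was at 112 and 123 RPM in the controls and at 71.5 and 120 RPM with the Crat hairpin. Its log2 fold change was -0.34 ± 0.22, with a 95% interval of -0.83 to 0.15 (limma, adjusted p = 0.322). Only the shallowest library, with 23 reads, lay clearly below the rest, and without Crat hairpin replicate 2 the change was -0.71 (limma, adjusted p = 0.000778). Psmb6, the caspase-like subunit that LMP2 replaces, was at 80.1 and 81.0 RPM in the controls and at 93.3 and 75.2 RPM with the Crat hairpin. The control values lay between the Crat hairpin values, and the change was 0.06 ± 0.16 with an interval of -0.31 to 0.42 (limma, adjusted p = 0.848). Psmb7, the trypsin-like subunit, was at 133 and 113 RPM in the controls and at 93.3 and 130 RPM with the Crat hairpin. Its groups overlapped too, with a change of -0.16 ± 0.18 and an interval of -0.55 to 0.24 (limma, adjusted p = 0.578). Without Crat hairpin replicate 2 it was called lower, at -0.40 (limma, adjusted p = 0.0246).

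A ratio of an inducible subunit to the partner it replaces cancels the scaling of a library. Psmb8 made up 6.30% of the reads of Psmb8 and Psmb5 together in control replicate 1 (95% Wilson interval 5.46 to 7.25) and 4.71% in control replicate 2 (2.40 to 9.01). In the Crat hairpin libraries it made up 75.5% (65.95 to 83.1) and 63.1% (58.8 to 67.1). Psmb5 thus had most of the pair's reads in both control libraries, and Psmb8 had most of them in both Crat hairpin libraries. The mean log2 ratio of Psmb8 to Psmb5 rose from -4.12 ± 0.31 (SD) to 1.20 ± 0.60, a 39.8-fold difference. These intervals cover counting error only, and the shares compare reads not corrected for transcript length.

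For the pair Psmb9 and Psmb6, Psmb9 made up 6.87% of the reads in control replicate 1 (95% Wilson interval 5.85 to 8.06) and 6.14% in control replicate 2 (3.01 to 12.1). In the Crat hairpin libraries it made up 37.5% (25.2 to 51.6) and 51.6% (45.4 to 57.7). The intervals of the groups did not overlap for either pair. The mean log2 ratio of Psmb9 to Psmb6 went from -3.85 ± 0.12 (SD) to -0.32 ± 0.59, an 11.5-fold difference. For each of these 2 ratios the exact two-sided permutation test gave p = 0.333, which is the smallest p that 2 libraries against 2 can reach.

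**Figure D3:**
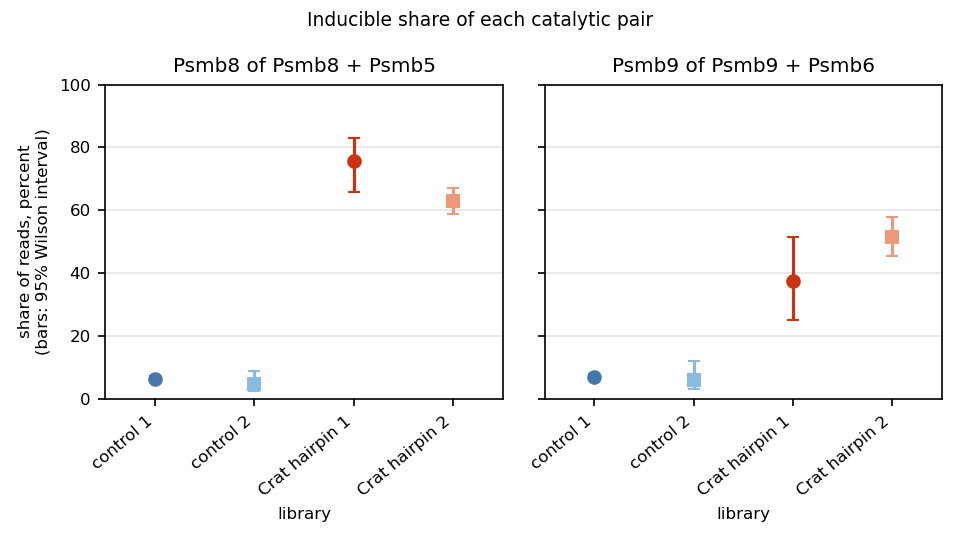
Share (percent) of the reads of an inducible subunit and its constitutive partner that belonged to the inducible one, for Psmb8 with Psmb5 and Psmb9 with Psmb6, in each of the 4 libraries, with 95% Wilson intervals. The control libraries lie between 4.71 and 6.87%, and the Crat hairpin libraries between 37.5 and 75.5%.

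All 44 genes together took 0.448 and 0.437% of the reads in the controls and 0.592 and 0.604% with the Crat hairpin. The inducible genes made up 4.64 and 4.35% of these reads in the control libraries and 14.9 and 14.8% with the Crat hairpin. The summed level of the 40 constitutive genes was 4274 and 4176 RPM in the control libraries and 5042 and 5146 RPM with the Crat hairpin. After scaling by TMM, which centres the bulk of the genes, these sums were 4667 and 4413 against 4648 and 4838, and the groups overlapped. Within a library, the median log2 level of the inducible genes minus that of the constitutive ones was -2.12 and -2.36 in the controls and 1.15 and 0.92 with the Crat hairpin, a difference of 3.28.

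The 9 constitutive genes called higher belonged to several roles. They were Psma3, Psma5 and Psma7 of the alpha ring, Psmb2 of the beta ring, Psmd2 and Psmd11 of the regulatory particle, the cap Psme4, Psmf1 and the binding partner Psme3ip1. With median-of-ratios or TMM scaling, 6 of the 40 were called higher, beside 8.06% and 7.76% of all genes. Under the same 2 scalings 0 were called lower, beside 9.68% and 9.89% of all genes. The main scaling put the median of all genes at 0.15, and these put it at -0.03 and -0.04. The median of the constitutive genes was then 0.00 and -0.01, and 20 of the 40 had a positive change in place of 32. The count of 9 also moved when a library was left out, and the share of all genes called higher moved with it. It was 2 without control replicate 1 (3.58% of all genes), 1 without control replicate 2 (3.24%), 15 without Crat hairpin replicate 1 (20.1%) and 17 without Crat hairpin replicate 2 (27.7%). In contrast, all 4 inducible genes were called higher under each of the 16 alternatives run on them, with log2 fold changes of 4.20 to 4.92 for Psmb8, 2.76 to 3.62 for Psmb9, 1.23 to 1.48 for Psme1 and 1.79 to 2.24 for Psme2.

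Psmf1, which encodes PI31, a protein that inhibits the core particle in vitro and binds FBXO7, had the largest change among the constitutive genes. It was at 24.9 and 38.6 RPM in the controls and at 103 and 104 RPM with the Crat hairpin. Both Crat hairpin libraries lay above both control libraries, which differed from each other more than the Crat hairpin libraries did. The log2 fold change was 1.70 ± 0.22 (limma, adjusted p = 5.88e-04), and the authors' deposited table gives an adjusted p of 1.31e-05. It stayed called under 15 of the 16 alternatives and was lost without the variance trend (limma, adjusted p = 0.0743). Psmb2, a noncatalytic beta subunit, was at 59.3 and 40.1 RPM in the controls and at 112 and 108 RPM with the Crat hairpin, a change of 1.16 ± 0.20 (limma, adjusted p = 0.00325). Its call was lost without control replicate 2, where the change was 0.88 (limma, adjusted p = 0.11), and without the variance trend (limma, adjusted p = 0.11).

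In the alpha ring, which gates entry to the core, 3 of 7 genes were called higher, or 42.9% beside 12.6% of all genes tested, with a median log2 fold change of 0.43. Psma7 was at 114 and 111 RPM in the controls and at 184 and 206 RPM with the Crat hairpin, a change of 0.78 ± 0.12 (limma, adjusted p = 0.00159). Psma5 was at 78.8 and 81.0 RPM against 134 and 126 RPM, a change of 0.70 ± 0.14 (limma, adjusted p = 0.006). Psma3 was at 161 and 146 RPM against 218 and 216 RPM, a change of 0.50 ± 0.11 (limma, adjusted p = 0.0116), and its reads cannot be told apart from those of Psma3l. None of these groups overlapped between control and Crat hairpin. Psma2, at -0.02, was the lowest of the ring, and Psma1, Psma4 and Psma6 lay between 0.18 and 0.43 without passing the test. The calls of Psma7 and Psma5 were lost without either control library and without the variance trend, and that of Psma5 also in DESeq2. That of Psma3 was lost in all these settings and in edgeR and limma-voom. It was also lost under both other scalings, where the change was 0.31 and 0.29 (limma, adjusted p = 0.093 and 0.126).

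In the beta ring 1 of 7 constitutive genes, Psmb2, was called higher, or 14.3% beside 12.6% of all genes tested, and the median was 0.06. Among those not yet named, Psmb1 was at 0.34, Psmb4 at 0.18 and Psmb3 at 0.02 on the log2 scale. The ring's genes therefore ranged from -0.34 for Psmb5 to 1.16 for Psmb2.

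In the regulatory particle none of the 6 ATPases, Psmc1 to Psmc6, passed the test (0 of 6). Of all genes tested 12.6% were higher and 6.36% lower, so 6 genes are too few to stand apart by this count. The log2 fold changes of the ATPases lay between -0.15 for Psmc4 and 0.21 for Psmc5. Of the 3 other base subunits that match by name, Psmd2, a scaffold that receives ubiquitin shuttles, was called higher. It was at 260 and 228 RPM in the controls and at 351 and 310 RPM with the Crat hairpin, a change of 0.44 ± 0.11 (limma, adjusted p = 0.0185). Psmd1 was at -0.04 and Psmd4, a ubiquitin receptor, at 0.10. Psmd2 falls outside the naming rule and was added after its values were seen. Its call was lost under both other scalings, without either control library, without the variance trend, and in edgeR, DESeq2 and limma-voom.

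Of the 8 lid genes that match by name 1 was called higher, Psmd11, a share of 12.5% and so near the 12.6% of all genes tested. This subunit helps to hold the regulatory particle on the core. It was at 101 and 109 RPM in the controls and at 180 and 169 RPM with the Crat hairpin, without overlap, and the change was 0.73 ± 0.12 (limma, adjusted p = 0.00276). Its call was lost without either control library, without the variance trend and in DESeq2. Psmd14, the deubiquitinase of the lid, was at 0.03. Psmd8 was at 116 and 115 RPM against 87.1 and 104 RPM, a change of -0.27 ± 0.14 (limma, adjusted p = 0.233). It was the only one of the 44 genes with both Crat hairpin values below both control values. In all, 25 genes had both Crat hairpin values above both control values and 1 had both below, beside 39.1% and 21.7% of all genes tested.

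Of the caps other than PA28 alpha and beta, Psme4 was measured. It encodes PA200, a cap that works without ATP or ubiquitin. It was at 410 and 406 RPM in the controls and at 501 and 537 RPM with the Crat hairpin, a small change of 0.34 ± 0.08 without overlap (limma, adjusted p = 0.0118). With TMM scaling the change was 0.14 (limma, adjusted p = 0.314) and with median-of-ratios scaling 0.15 (limma, adjusted p = 0.223). The call was also lost without either control library, without the variance trend, and in edgeR and DESeq2. The core's assembly chaperones Psmg1 to Psmg4 gave 0 calls of 4, beside 12.6% higher and 6.36% lower of all genes tested. Their changes ran from -0.11 to 0.75. Psmd5, a chaperone of the regulatory particle, was at 0.42 and not called (limma, adjusted p = 0.149). Psme3ip1 was at 19.8 and 19.7 RPM in the controls and at 37.3 and 49.3 RPM with the Crat hairpin, a change of 1.08 ± 0.25 (limma, adjusted p = 0.0152). Its call was lost without either control library, without the variance trend and in DESeq2. Without Psme3ip1 and Psmc3ip, 8 of 38 constitutive genes were called higher, or 21.1% beside 12.6% of all genes tested, with a median of 0.18.

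The authors' deposited table gives an adjusted p under 0.05 to the 4 inducible genes and to 3 constitutive ones, Psmf1, Psmb2 (0.0205) and Psma7 (0.0188), all higher. It gives one to 5.36% of all genes tested in the higher direction and to 6.12% in the lower. The other 6 constitutive genes called by limma had adjusted p-values of 0.143 to 0.655 in the authors' deposited table.

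Psmb8 and Psmb9 are neighbours of the TAP transporter genes in the RefSeq gene order of GRCr8, which runs Tap2, Psmb8, Tap1, Psmb9 and RT1-DMb on chromosome 20. Tap1 was at 21.5 and 13.6 RPM in the controls and at 218 and 177 RPM with the Crat hairpin, a log2 fold change of 3.44 ± 0.23 (limma, adjusted p = 6.57e-06). Tap2 was at 14.9 and 13.6 RPM against 124 and 112 RPM, a change of 2.96 ± 0.21 (limma, adjusted p = 7.66e-06). These 4 consecutive genes were all called higher, while RT1-DMb beside them, at most 3.11 RPM in any library, was not (0.60; limma, adjusted p = 0.618). GAAANNGAAA also stood in the promoter windows of Tap1 and Tap2 but not in that of Psmb9, against 3.92% of all promoters. The windows of the other neighbours were not examined singly, so the motif is not compared between called and uncalled neighbours.

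Psme1 and Psme2 stand on chromosome 15 in the order Dcaf11, Fitm1, Psme1, Emc9, Psme2 and Rnf31. Emc9, which lies between them, was at 1.94 and 2.27 RPM in the controls and at 0 and 0.616 RPM with the Crat hairpin, from at most 3 reads in each library but control replicate 1, and was not called (limma, adjusted p = 0.375). Rnf31, a subunit of the linear ubiquitin ligase, was called higher, at 1.30 ± 0.22 (limma, adjusted p = 0.00294), with an adjusted p of 0.122 in the authors' deposited table. Dcaf11, at 0.40, and Fitm1, at 0.02, were not called. The calls on chromosome 15 were thus interrupted by a gene with few reads.

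Among the partners of class I loading, 6 of 7 tested genes (85.7%) were higher and 0 lower, beside 12.6% and 6.36% of all genes tested. The list's median log2 fold change was 2.45. The largest changes were those of Tapbp, the bridge between TAP and class I molecules, at 3.63 ± 0.10, Tap1, Tap2 and B2m, the class I light chain, at 2.45 ± 0.07. Canx, a general chaperone, was at -0.04. Of 13 genes that control transcription of proteasome and class I genes, 9 were higher, or 69.2% beside 12.6% of all genes tested. In this list 0 were lower, and the median was 0.69. Stat2 was at 58.2 and 36.3 RPM in the controls and at 796 and 833 RPM with the Crat hairpin, a change of 4.12 ± 0.18 (limma, adjusted p = 3.46e-07). Nlrc5, the activator of class I genes, was at 3.78 ± 0.27 and Irf1 at 3.01 ± 0.21, each with both Crat hairpin libraries above both control libraries.

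Nfe2l1 encodes NRF1, which raises the constitutive proteasome genes when proteasome activity falls. It was at 404 and 434 RPM in the controls and at 551 and 605 RPM with the Crat hairpin, a change of 0.46 ± 0.08 (limma, adjusted p = 0.00337). The authors' deposited table gives it an adjusted p of 0.145. Nfe2l2, which encodes the related factor NRF2, was at 194 and 182 RPM in the controls and at 429 and 352 RPM with the Crat hairpin, a change of 1.04 ± 0.11 (limma, adjusted p = 0.000169). The authors' deposited table gives it an adjusted p of 2.29e-06. It falls outside the naming rule and was added after its values were seen.

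Of 18 assembly and associated factors, 4 were higher and 0 lower, or 22.2% higher beside 12.6% of all genes, and the median of 0.17 was near the 0.15 of all genes. These were the ubiquitin shuttle Ubqln2 at 1.41 ± 0.16, Ddi2, the protease that activates NRF1, at 0.96 ± 0.21, Fbxo7, the partner of PI31, at 0.95 ± 0.26, and Zfand5 at 0.64 ± 0.15. Adjusted p-values in the authors' deposited table were 0.000127 for Ubqln2, 0.168 for Ddi2, 0.35 for Fbxo7 and 0.388 for Zfand5. Pomp, the maturation factor of new cores, was at 117 and 97.6 RPM in the controls and at 99.5 and 107 RPM with the Crat hairpin. Its groups overlapped, and the change was -0.05 ± 0.15 (limma, adjusted p = 0.842). Of the 18 factors, 8 had both Crat hairpin values above both control values, beside 39.1% of all genes tested. Only Sem1 had both below, beside 21.7% of all genes, at 63.6 and 57.5 RPM against 31.1 and 46.8 RPM. Its change was -0.65 ± 0.23 (limma, adjusted p = 0.0843). Of 7 ubiquitin genes 2 were higher and 1 lower, beside 12.6% and 6.36% of all genes tested. Uba1, the main activating enzyme, was among the higher at 0.70 ± 0.08, and Rps27a was lower at -0.42 ± 0.07. Of 8 peptide trimming genes 1 was called higher, Erap1, the trimming peptidase of the endoplasmic reticulum, at 1.31 ± 0.14. That is 12.5% of the list, near the 12.6% of all genes, and the list's median of 0.14 was near the 0.15 of all genes. Npepps, another trimming peptidase, was at 0.13 and not called.

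**Figure D4:**
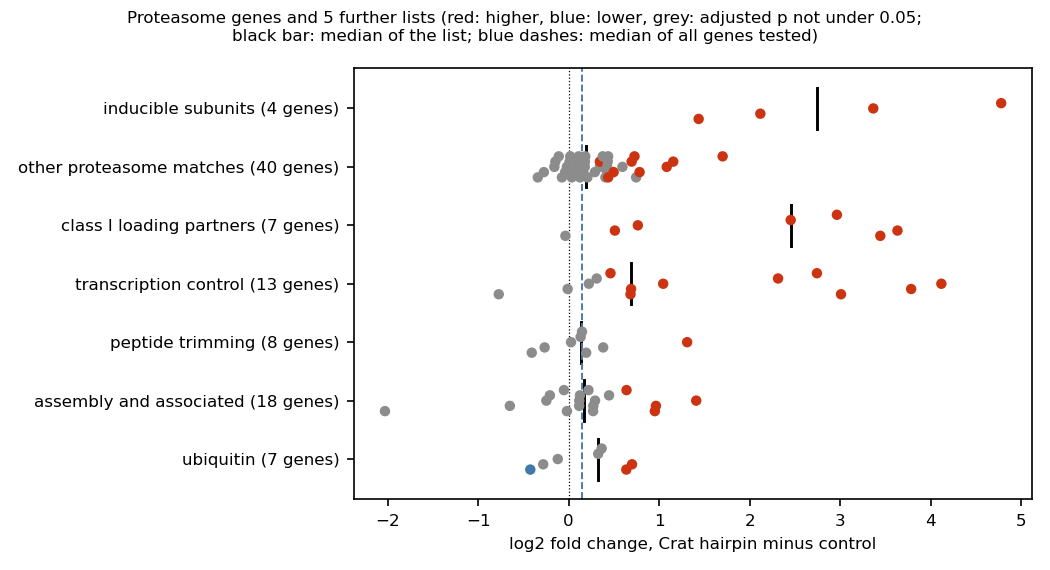
Log2 fold change (Crat hairpin minus control, on the log2(RPM + 1) scale) of each gene of the inducible and constitutive proteasome groups and of 5 further lists. Each point is a gene, black bars are list medians and the blue dashed line is the median of all genes tested. The medians are 2.74 for the inducible genes and 2.45 for the class I partners, and 0.20, 0.17 and 0.14 for the constitutive genes, the assembly factors and the trimming peptidases.

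White blood cells carry much immunoproteasome, so their markers are given beside the inducible genes. Of 13 leukocyte markers 11 were listed and 10 tested, and 0 were called in either direction (limma and the authors' deposited table). Their summed level was 56.5 and 55.2 RPM in the control libraries and 71.5 and 73.9 RPM with the Crat hairpin. Both Crat hairpin values lay above both control values for Cd68 (6.93 and 5.30 against 9.33 and 12.9 RPM) and Itgam (6.80 and 6.81 against 12.4 and 9.24 RPM). They lay below for Ptprc (5.28 and 6.05 against 3.11 and 4.93 RPM) and Csf1r (2.58 and 3.03 against 0 and 2.46 RPM). The untested Cd3e, which stayed under 1 RPM, lay below too. Of all genes tested, 39.1% had both Crat hairpin values above both control values and 21.7% had both below. In Crat hairpin replicate 1, Cd68 had 3 reads, Itgam 4, Ptprc 1 and Csf1r 0, so these markers could show little. Adgre1 was at 7.01 and 4.54 RPM against 15.6 and 4.93 RPM, and Cd74 was at 14.2 RPM in Crat hairpin replicate 2 and at or below 0.296 RPM in the other libraries. Of 5 endothelial markers 1 was higher and 1 lower, and of 8 fibroblast markers 2 were higher and 5 lower. Of 5 smooth muscle and pericyte markers 1 was higher and 3 lower. Among all genes tested, 12.6% were higher and 6.36% lower. The part of cell composition in the changes of the proteasome genes was not tested.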

How the data were processed

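The 4 libraries were made from total RNA and read on an Illumina HiSeq, per the labels. Kallisto, DESeq2 and the rat build mRatBN7.2 are named, without tool versions, per the submitters' processing notes. The step from transcripts to gene values was not given in the sources used here. Per the file headers the values are TPM, but 100% of the deposited values are whole multiples, within 0.02 of a read, of a step constant within a library. The deposited signal is therefore RPM, and reads were recovered by dividing by that step. The authors also deposited p-values and adjusted p-values.

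Each gene identifier was used once. Genes averaging 1 RPM or more were fitted as log2(RPM + 1), with a pseudocount of 1, by limma 3.58.1 with a variance trend in R 4.3.3. P-values were adjusted by Benjamini and Hochberg over all genes tested, with a threshold of 0.05. Fold changes on this scale understate the change of low genes. The design assumed a normalized unit, and the test was kept for RPM. The alternatives were other pseudocounts, filters, scalings and variance priors, edgeR 4.0.16, DESeq2 1.42.0 and limma-voom on the recovered reads, a replicate block and leaving out each library. Ratios were compared by exact permutation.

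The genes, lists and tests were chosen with earlier results of these data known. Named in full were the inducible genes, their catalytic partners, Psme4, Psmf1 and up to 6 other called genes in each direction, and in each further list up to 4 called genes, with Tap1, Tap2, Irf1, Nlrc5, Nfe2l1 and Pomp. Some genes that this rule names are not reported here. Promoter sequences are from RefSeq (GRCr8). No protein sequence was used here.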

Additional observations from a re-analysis of the deposited data

How the results depend on the processing

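The 4 inducible genes were higher and 0 were lower under every alternative. The 9 constitutive genes called higher became 0 without the variance trend, where 2.05% of all genes were called higher, and 3 in DESeq2 (5.96% of all genes), and ranged from 1 to 17 when a library was left out (3.24 to 27.7%). The 0 called lower became 3 in edgeR (15.9% of all genes) and 3 in limma-voom (15.2%), and ranged from 0 to 3 when a library was left out (1.35 to 20.3%). The difference in within-library median log2 levels between inducible and constitutive genes, 3.28, was 2.96 with a pseudocount of 5 and 3.16 to 3.40 when a library was left out. With the replicate block, 9 constitutive genes were higher, 0 lower, and all 4 inducible genes higher. Of all genes, 13.1% were then called higher and 6.91% lower. The numbers were not shown to pair the libraries (correlation of deviations 0.0061 over 12949 genes and 0.21 over the 44 proteasome genes), and the block changed no call of a named gene. Of the 44 genes, none that was called in the main fit changed sign. Changes not called in the main fit did. Psmb5 was at 0.03 and Psmb7 at 0.08 without Crat hairpin replicate 1, and at -0.71 and -0.40 without Crat hairpin replicate 2. Psmb6 was at -0.24 in limma-voom, -0.15 with TMM and -0.13 with median-of-ratios scaling. The causes were not tested. With a library left out, a group of 1 was assumed to vary like the other. A chosen-after-seeing-the-data alternative, without Psmc3ip and Psme3ip1, gave 8 of 38 higher, beside 12.6% of all genes. Depth limits the shallowest library, where the constitutive genes had a median of 35 reads.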
